A study of Zea mays with 58 samples.

Results

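In roots of maize seedlings, 169 of the 46335 features counted rose late after a transfer to medium without nitrogen and stayed level late after a transfer to medium with nitrogen. They were chosen by a rule on the level of each gene, the group mean of log2(CPM + 1), where CPM is the counts of a gene per 1000000 counts of its library. A member had to reach a level of 3 in some group, which 16512 genes did, and to rise by at least 1 from time 0 to the mean of 90 and 120 min without nitrogen. With nitrogen its mean at 90 and 120 min had to lie within 0.5 of its level at 5 min. Averaged over 60, 90 and 120 min it had to be lower with nitrogen by at least 1. These conditions left 177 genes, of which 8 are regulators in the authors' deposited network and were left out.

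The seedlings were of the inbred line B73, 10 days old, with the endosperm cut away and no nitrogen supplied for 2 days. This starvation was common to all groups. The new medium held either nitrogen as 20 mM KNO3 plus 20 mM NH4NO3, called N, or 20 mM KCl alone, called noN. Roots of both media were harvested at 5 min steps through 20 min and later at 30, 45, 60, 90 and 120 min, and noN also has a time 0. The media differ in chloride and total salt as well as in nitrogen, so those differences cannot be told apart. Each library came from the combined roots of 3 seedlings, with 3 libraries a group and 4 in noN at 120 min. Transcripts were counted near their polyadenylated ends, with molecular identifiers that mark each captured molecule.

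Nitrate and ammonium are nutrients for roots, and nitrate is also a signal that plant cells read directly. Resupply to a starved root is known to switch on genes of nitrate uptake and assimilation within minutes and to lower genes that serve scavenging and recycling under starvation. By its late course alone, a gene that climbs in noN and stays lower in N goes the opposite way from the better known induced response. The early courses of the members were mixed, as given below. Whether nitrogen itself, rather than chloride or total salt, kept them lower in N was not tested. The count table carries gene model IDs and no gene names, and 0 of the 169 IDs matched the reference table of names, so roles, root markers and markers of other tissues were not analysed here. The members are described by their courses, and 4 of them by ID.

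Total counts per library ran from 1978039 to 3790442, the median being 2617921. As a measure of makeup, the log2 exon length of genes weighted by their counts was 11.01 to 11.114 in the 21 noN libraries of 0 to 45 min, above every other library. It was 10.924 to 10.997 in N at 5 to 45 min, 10.978 to 10.995 in N at 60 to 120 min and 10.967 to 10.999 in noN at 60 to 120 min. Every N against noN difference at 5 to 45 min and every noN change across 45 to 60 min therefore also compares libraries of different makeup. So does every change from time 0, whose libraries had 11.029 to 11.034, to N at any time or to noN at 60 to 120 min. The part of makeup in the results was not tested, and the labels give no batch. The members are short, with a median exon length of 1458 bases, against 2170 for all genes at a level of 3.

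The values that chose the members are given first, as a description. From time 0 to the mean of 90 and 120 min in noN they rose by a median of 1.68 on the log2(CPM + 1) scale (range 1.00 to 4.31), while all genes at a level of 3 had a median of -0.02. In N the change from 5 min had a median of 0.02, and N minus noN over 60 to 120 min a median of -1.31 (range -3.15 to -1.01). At the edges of the rule, the smallest rise among members was 1.005 and the largest just outside 0.991. The smallest difference between media was -1.007 inside and -0.999 outside. In N the change closest to the band's edges was 0.498 and -0.465 inside and 0.509 and -0.511 outside. The lowest peak level was 3.045 inside and 2.976 outside. All 169 passed the filter on low counts of the test across genes. With edgeR's quasi-likelihood test, 157 members were called lower in N over 60 to 120 min at an adjusted p of 0.05, where 16.9% of all 18872 genes tested were. In noN 125 were called higher at 90 and 120 min than at time 0, against 18.7% of all genes, and in N 2 were called lower at 90 and 120 min than at 5 min, against 14.9%. The rule used these contrasts, so nothing is read from them.

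The rule fixes that these genes rose from time 0 in noN at the late times and were on average lower in N then. It does not bar a rise from time 0 in N. At 90 min in N 10 members (5.9%) were at least 1 above time 0, and at 120 min 11 (6.5%) were. Among all genes at a level of 3 the shares were 7.6% and 7.4%. In the first 45 min some members were above time 0 in both media. In each library, the members' median change from time 0 gives their common level. At 15 min the 3 noN libraries stood at 1.57, 1.44 and 1.64, and the 3 N libraries at 0.69, 0.25 and 0.43. At 90 min the noN libraries stood at 1.61, 2.31 and 1.86 and the N libraries at 0.29, 0.28 and 0.04. Thus noN roots had a first peak at 15 min, nearly as high as the late one, and no N library overlapped it. The 4 noN libraries of 120 min, at 1.40, 1.79, 1.40 and 1.17, lay below the 2 higher libraries of 90 min. In N, medians of the group changes at 10, 15, 30 and 45 min were 0.41, 0.43, 0.43 and 0.34, and those at 60, 90 and 120 min were 0.17, 0.20 and 0.12. At 30 min in N 36 members (21.3%) were at least 1 above time 0, against 4.0% of all genes at a level of 3. The rule also used the time 0 libraries, so all changes from time 0 given here are a description. In such whole-root samples, a change in the number of cells that express a gene cannot be told apart from a change in RNA per cell.

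**Figure D1:**
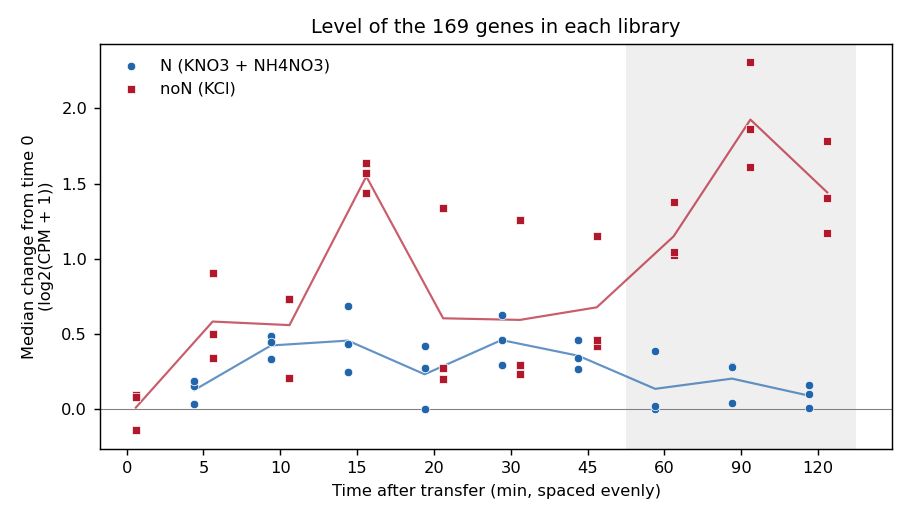
Each point is 1 library, placed at the median over the 169 genes of its log2(CPM + 1) minus the mean of the time 0 libraries, against time after transfer in minutes, in N (circles) and noN (squares). Lines join group means of these points, and the shaded times are among those that chose the genes. The 3 noN libraries at 15 min lie at 1.44 to 1.64, and single noN libraries at 20, 30 and 45 min lie at 1.34, 1.26 and 1.15, far above the others of their group.

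Between 15 and 60 min the noN replicates were not alike. At 20 min replicate 1 stood at 1.34 and replicates 2 and 3 at 0.20 and 0.27. At 30 min replicate 2 stood at 1.26 and the others at 0.29 and 0.23, and at 45 min replicate 1 stood at 1.15 and the others at 0.42 and 0.46. So in each of these 3 groups 1 library came close to the 15 min peak while the remaining pair was within the range of the N libraries. At 5 min replicate 1 was also the highest, at 0.91 against 0.50 and 0.34. Over all genes at a level of 3 the median change in these 4 libraries was 0.03, 0.11, 0.15 and 0.21 in order of time, close to that of the other noN libraries of their group. The weighted length in them was 11.023, 11.05, 11.071 and 11.078, and was the shortest of its group at 20 min, where the others had 11.069 and 11.073, and at 45 min, where they had 11.114 and 11.105. Their totals were 2724601, 2949327, 2183209 and 2906427 counts.

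The genes raised in the separate libraries of 20, 30 and 45 min were largely shared. A member was counted as raised where the library exceeded both others of its group by at least 1 on the log2(CPM + 1) scale. At 20 min 76 members were raised in replicate 1. At 30 min it was 71 in replicate 2, and at 45 min it was 58 in replicate 1. These are 45.0%, 42% and 34.3% of the members, where the same libraries were raised for 3.1%, 2.6% and 2.1% of all genes at a level of 3. Single N libraries were raised for members too, though for fewer, with 32 (18.9%, against 1.7% of all genes) in replicate 3 of 60 min, 23 (13.6%, against 0.8%) in replicate 3 of 30 min and 23 (13.6%, against 0.5%) in replicate 1 of 45 min. In noN, replicate 2 of time 0 was raised for 24 (14.2%, against 0.7%), before any transfer. Replicate 2 of noN was also raised for 28 (16.6%, against 1.1%) at 60 min and for 26 (15.4%, against 1.2%) at 90 min. The lists of 20 and 30 min shared 66 members, 86.8% of the first and 93.0% of the second. Those of 20 and 45 min shared 55, which was 72.4% and 94.8%, and those of 30 and 45 min shared 57, which was 80.3% and 98.3%. At 5 min 32 members were raised in replicate 1, and 24 of these (75%) were also raised at 20 min, 31.6% of that list. It shared 17 (53.1% and 23.9%) with the list of 30 min and 11 (34.4% and 19%) with that of 45 min. Over all genes at a level of 3, 1.7% were raised in that library. Of the 169 members 68 (40.2%) were raised in at least 2 of the 3 libraries of 20, 30 and 45 min, 14 in 1 of them and 87 in none. Among all genes at a level of 3 there were 330 of the first kind (2.0%), so the 68 members make up 20.6% of them. The 3 libraries were raised for 516, 431 and 347 of all these genes, so the sharing was not particular to the members. The rule used none of the noN libraries of 5, 20, 30 and 45 min, nor those of N at 30 and 45 min, beyond the level of 3, which any group may meet. It did use the N libraries of 60 min and the noN libraries of time 0, 60 and 90 min. The split was made after these values had been seen and carries no test.

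**Figure D2:**
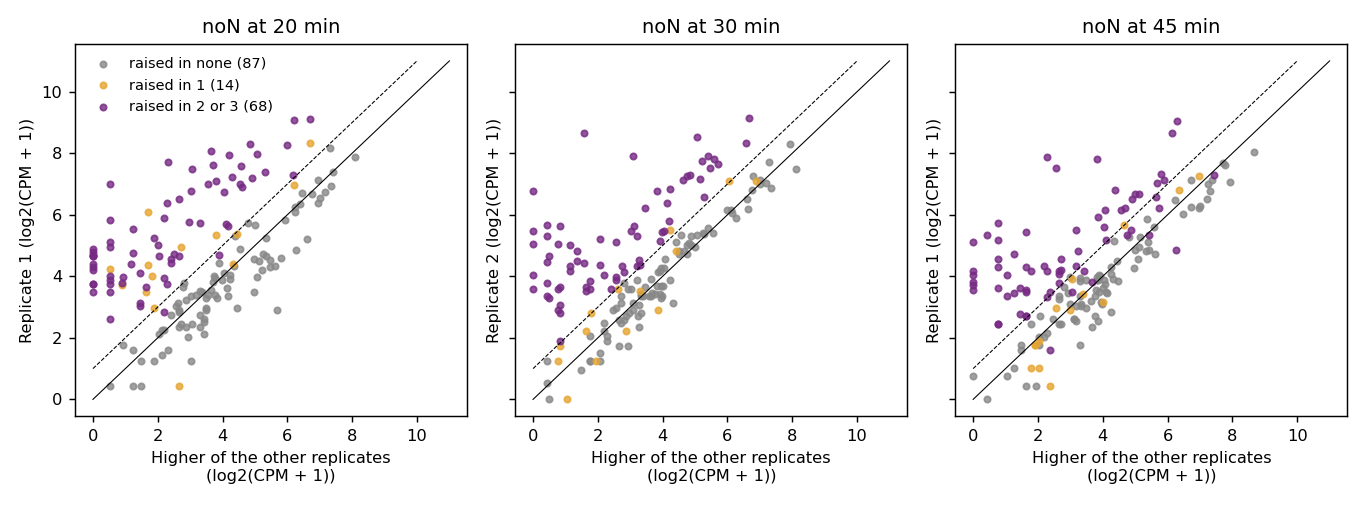
Each point is 1 of the 169 genes in noN roots at 20, 30 or 45 min, with its level in the raised library (replicate 1, 2 and 1) on the vertical axis and the higher of the other replicates on the horizontal axis, both as log2(CPM + 1). The solid line marks equal levels and the dashed line a difference of 1; the 68 genes raised in 2 or 3 libraries lie mostly above the dashed line in all 3 panels and the 87 raised in none lie on or under it.

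The 68 variable members were near their time 0 level in some noN libraries, far above it in others and between in a few. Their median change from time 0 was 2.96 in replicate 1 of noN at 20 min and -0.30 and -0.35 in the others. At 30 min it was 2.55 in replicate 2 and -0.04 and -0.20 in the others, and at 45 min 2.31 in replicate 1 and 0.15 and 0.16 in the others. At times not used for this split, all 3 noN libraries of 15 min were high, at 2.61, 2.00 and 2.83. The noN libraries of 90 min, a time that chose the members, were high too, at 2.08, 2.68 and 2.25. At 10 min they stood at -0.18, 1.16 and 1.51. At 60 min they stood at 0.46, 1.69 and 0.55, and at 120 min at 1.26, 1.78, 0.13 and 0.55. The rule used these late times too. In N roots no library reached 1, since the 27 N libraries lay between -0.35 in replicate 2 of 120 min and 0.72 in replicate 1 of 45 min. At 15 min all 68 were at least 1 above time 0 in noN, where 6.6% of all genes at a level of 3 were. In N 3 were, against 2.7% of all genes. The time 0 libraries were themselves uneven for these members, with medians of -0.19, 0.34 and -0.21. They belong to the rule, so these shares are a description.

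One variable member shows the course with high counts, the one with the highest CPM in any library (CPM from here on uses library sizes scaled by TMM). It stood at 114, 81.6 and 78.6 CPM in the libraries of time 0 and at 1752, 1032 and 2167 CPM in noN at 15 min. At 20 min in noN it stood at 507, 65.5 and 94.8 CPM, and at 60 min at 58.3, 163 and 1406 CPM. In N roots it stood at 145, 70.8 and 120.5 CPM at 15 min and at 145, 92.1 and 101 CPM at 90 min. In noN at 90 min it stood at 152, 945 and 313 CPM. It was already at 887, 222 and 170 CPM in noN at 5 min and at 334, 217 and 166 CPM at 10 min. So its 15 min libraries were not the first above time 0. They held its highest value, though the 1406 CPM at 60 min exceeded the 1032 CPM at 15 min. In noN at 60 min another replicate was high than the one in which the variable members as a group were.

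The 87 steady members had medians close to each other in both media up to 45 min and apart later, although 35 of them were called higher and 10 lower in N over 10 to 45 min (edgeR adjusted p of 0.05). Their median change from time 0 in the 3 libraries was 0.75, 0.99 and 0.85 in N at 30 min and 0.57, 0.70 and 0.52 in noN at that time. At 45 min it was 0.42, 0.60 and 0.35 in N and 0.60, 0.56 and 0.76 in noN. The libraries of the media overlapped at 5, 10, 15, 20 and 45 min, and those of N lay above at 30 min. At 60 min, a time that chose the members, noN libraries stood at 1.30, 1.22 and 1.15 and N libraries at 0.22, 0.40 and 0.33. At 120 min the 4 noN libraries stood at 1.68, 1.83, 1.85 and 1.44 and the N libraries at 0.40, 0.30 and 0.23. The step of the noN libraries from 45 to 60 min falls where their makeup also changes, and the part of that change in the step was not tested. Within N, the steady members had a median group change of 0.78 at 30 min and of 0.29 at 60 min.

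**Figure D3:**
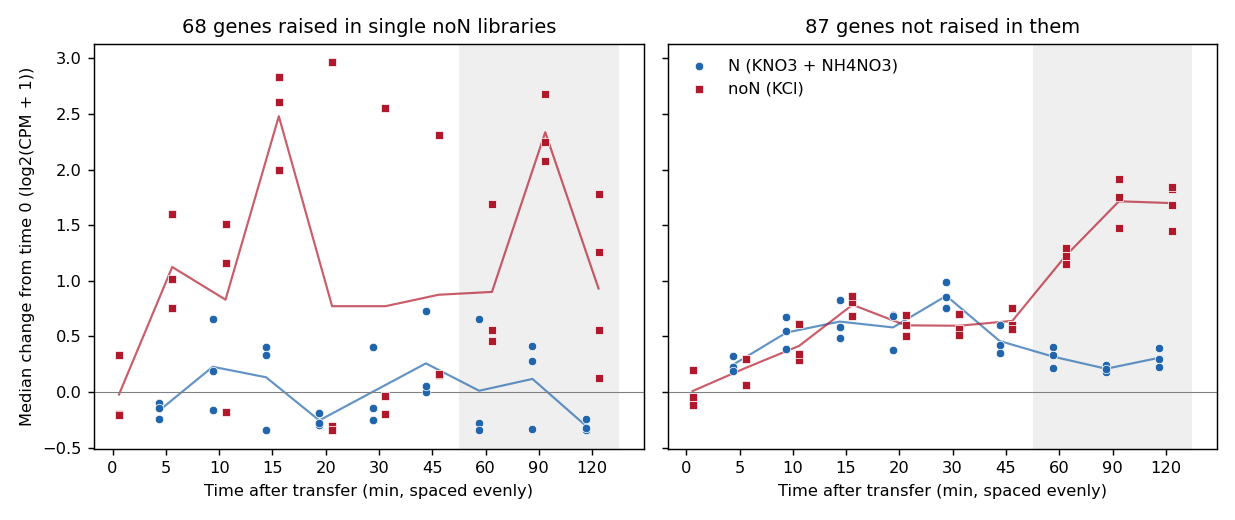
Library medians of the change from time 0 in log2(CPM + 1), against time after transfer in minutes, for the 68 variable genes (left) and the 87 steady genes (right), with N as circles and noN as squares; lines join group means and shaded times are among those that chose the genes. Left, noN libraries are either near 0 or above 2 at 20, 30 and 45 min. Right, replicates lie close together and the media part at 60 min.

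The 2 kinds differ in a readout that the rule did not use directly, the authors' network. Of the 87 steady members 57 (65.5%) are targets in the authors' deposited table, and of the 68 variable members 0 are. Over all 169 members 59 (34.9%) are targets, against 13.8% of the genes at a level of 3. That network was built by the same study, so it is no independent measure of their course. In the authors' deposited table the highest weight to a member target came from 32 of the 196 regulators, and 1 regulator gave it for 7 of the 59, having given it for 119 of all 2294 targets. The median of these highest weights was 0.469 for member targets and 0.693 for all targets. Exon lengths had a median of 1339 bases in the variable and 1552 bases in the steady members. The variable members stood at a median of 2.99 CPM at time 0 and 3.26 CPM in N, against 6.93 and 12.49 CPM in the steady members. A count of 0 in some N library was found for 33 of the 68 variable and 8 of the 87 steady members. The highest CPM in any library had medians of 51.4 and 54.9. The part of these levels in the differences between the 2 kinds was not tested.

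N effects at 10 to 45 min rest on libraries that the rule used only for the level of 3, which any group may meet. A member that met it in one of these groups alone differs there in part by the rule, and such members were not counted. The N effect is N minus noN at equal time in an edgeR model of all 58 libraries, and counts are at an adjusted p of 0.05 over the 18872 genes tested. At 15 min 56 members (33.1%) were lower in N, against 12.5% of all genes tested, and 10 (5.92%) were higher, against 14.7%. The median N effect was -0.89 for members and 0.00 for all genes. At 20 min 37 members were lower, against 13.8% of all genes, and 18 higher, against 16.4%, with a median of -0.51. At 30 min 16 were lower (background 7.93%) and 20 higher (12.2%), with a median of -0.09. At 45 min 14 were lower (10.2%) and 8 higher (13.4%), with a median of -0.25. At 10 min 1 was lower (4.18%) and 10 higher (7.56%), with a median of 0.06. At 15 min all 3 noN libraries were high for the variable members, and at 20 min 1 was.

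**Figure D4:**
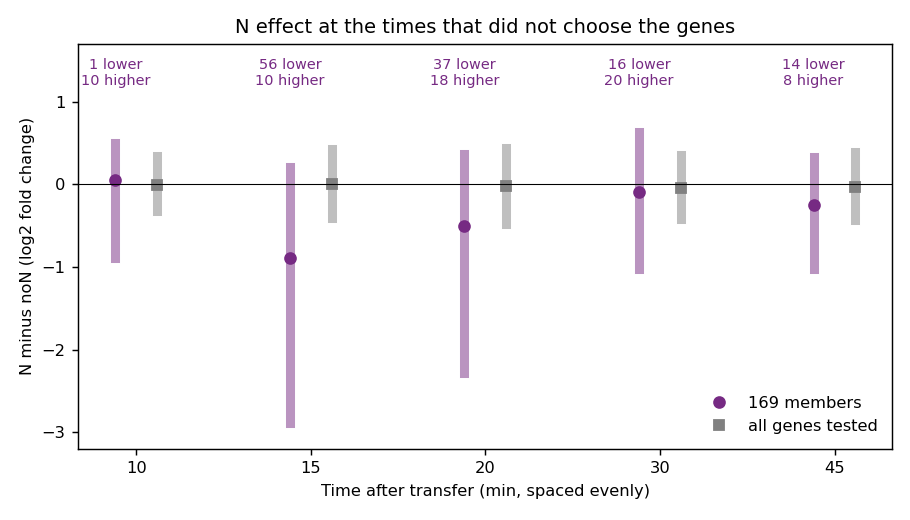
N effect (N minus noN, log2 fold change of the edgeR model) at the 5 times whose libraries did not choose the genes, for the 169 members (circles) and all 18872 genes tested (squares), against time in minutes. Symbols are medians over genes, bars run from the first to the third quartile, and the numbers are members called at an adjusted p of 0.05. At 15 min the members' median was -0.89 with 56 called lower.

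At 15 min the lower count was 40 to 52 when any single library was left out. The higher count was 1 without replicate 1 of N and 4 without replicate 1 of noN. In these fits 8.42% to 10.4% of all genes tested were lower, and 10.6% were higher without replicate 1 of either medium. At 20 min the lower count was 5 without replicate 1 of noN, and 17, 13 and 16 without replicates 1, 2 and 3 of N. The higher count was 10 without replicate 3 of N. The shares of all genes in these fits were 9.58% lower, then 12.3%, 9.48% and 7.56% lower, and 11.4% higher. At 30 min the lower count was 2 without replicate 2 of noN and 5, 8 and 7 without replicates 1, 2 and 3 of N. The higher count was 12 without replicate 1 of noN. In the same order, all genes had shares of 4.57%, then 4.74%, 6.21% and 5.16% lower, and 10.1% higher. At 45 min the lower count was 5 without replicate 1 of noN and 4, 3 and 4 without replicates 1, 2 and 3 of N. The higher count was 4 without replicate 1 of noN. Here the shares of all genes were 5.77%, then 5.86%, 5.45% and 8.63% lower, and 8.7% higher. At 10 min the higher count was 5 without replicate 1 or 3 of noN or replicate 2 of N. Of all genes 5.58%, 3.42% and 3.48% were higher in these fits. The lower count was 0 without replicate 2 of N or replicate 3 of noN, against 1.12% and 1.42% of all genes. It was 2 without replicate 2 of noN and 3 without replicate 3 of N, against 2.64% and 5.8%. With the 4 raised noN libraries left out together, the lower counts at 10, 15, 20, 30 and 45 min were 12, 69, 5, 2 and 7. Of all genes tested in that fit 4.17%, 12.2%, 9.67%, 4.57% and 5.82% were lower.

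Averaged over 10 to 45 min, 65 members (38.5%) were lower in N, against 30.6% of all genes tested, and 35 (20.7%) were higher, against 29.4% (edgeR). Of the 65 lower members 50 were variable and 10 steady, and the 35 higher members were all steady. The lower count was 38 without replicate 1 of noN at 20 min and 27 without the 4 raised noN libraries, while the higher count was then 37. Of all genes tested in these reduced fits 28.6% and 26.1% were lower, and 27.5% were higher in the second. The 35 higher members had a median N effect of 0.63. Their group levels in N at 15, 30 and 45 min were a median of 1.00, 1.16 and 0.79 above time 0, and 0.08 at 90 min. In noN the same genes stood at 0.74, 0.35 and 0.42 at these early times and at 1.87 at 90 min. The early order of the media picked these 35 genes and the late order is the rule's, so both are a description.

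Changes within a medium between libraries that the rule used only for the level of 3 were few apart from the 15 min peak. A member that met that level in noN at 15 min alone is higher there by the rule, and such members were not counted. In noN at 15 min against the mean of 10 and 20 min, 29 members (17.2%) were higher, against 3.82% of all genes tested, and 143 of the 169 had a positive difference, with a median of 0.85 against -0.03 (edgeR). Left without replicate 3 of noN at 15 min it was 11, against 0.901% of all genes. Without replicate 1 of 20 min it was 73 (background 5.52%), and without the 4 raised noN libraries 80 (background 6.03%). None was called lower, where 0.699% of all genes were, and DESeq2 and limma also called 0 lower. In either direction 63 members had an unadjusted edgeR p of 0.05, and the share of all genes at that p was not counted. From 5 to 45 min in noN 14 members rose (background 2.9%) and 4 fell (3.29%). The risen count was 8 and 6 without replicates 2 and 3 of noN at 45 min (background 1.86% and 1.43%). Leaving out replicate 3 of 5 min gave 6 (1.72%). The fallen count was 2, 0 and 0 without replicates 1, 2 and 3 of noN at 45 min (1.66%, 2.26% and 1.96%). Leaving out replicate 1 of 5 min gave 0 (1.78%). From 10 to 45 min in N 6 members rose (5.04%) and 7 fell (3.44%). The fallen count was 4 and 2 without replicates 2 and 3 of N at 10 min (1.73% and 3.04%). It was 2 and 0 without replicates 1 and 2 of N at 45 min (1.77% and 1.93%). The difference between media in the change from 10 to 45 min was called in 0 members by edgeR, where 0.721% of all genes were called higher and 0.191% lower. An unadjusted edgeR p of 0.05 was met by 24 members, again without a count over all genes. DESeq2 called 1 higher and 1 lower, limma on the quantile normalized values 0 and 1, and edgeR without replicate 1 of N at 10 min 2 lower.

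The 4 named genes are the 2 members called lower and the 2 called higher with the smallest p of the mean N effect at 10 to 45 min, so their tests of that mean are those that picked them. All 4 are steady members, and their courses before 60 min differed while their late difference had the same sign by the rule.

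Zm00001d003850 (AGPv4 chromosome 2, 62448255 to 62449800, plus strand, exons of 1457 bases) lay above all its time 0 libraries in noN from 20 min on. It stood at 37.8, 48.9 and 37.3 CPM in the libraries of time 0 and at 61.2, 71.2 and 65.8 CPM in noN at 20 min. In noN it reached 75.7, 81.6 and 88 CPM at 30 min and 99.1, 118 and 124 CPM at 90 min. The climb was uneven, with noN group means of 33.76 CPM at 5 min, 52.1 CPM at 15 min, 68.28 CPM at 45 min and 97.39 CPM at 120 min. In N the gene stood at 25.2, 29.1 and 37 CPM at 30 min and at 34.4, 49.7 and 43.9 CPM at 90 min. The media did not overlap from 20 min on. At 30 min N was lower by an N effect of -1.43 (SE 0.21, adjusted p = 1.302e-06, edgeR). Over 10 to 45 min it was -0.71 (SE 0.09, adjusted p = 1.013e-08, edgeR). From 5 to 45 min in noN it rose by 1.02 (SE 0.20, edgeR adjusted p = 0.0008545).

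Zm00001d026412 (chromosome 10, 145387777 to 145388573, plus strand, exons of 692 bases) was near absent at time 0 and present in noN from the first sampling. It stood at 0, 1.31 and 0.401 CPM at time 0, and at 24, 22.7 and 7.79 CPM in noN at 5 min. In noN at 20 min it stood at 35.4, 0.814 and 18 CPM. In N it stood at 1.94, 5.15 and 0.92 CPM at 5 min, at 0, 9.01 and 25.9 CPM at 10 min and at 1.03, 2.53 and 4.54 CPM at 90 min. Its N libraries of 10 min and its noN libraries of 20 min spread widely, and the media overlapped at these 2 times alone. The gene counts as steady only by the cut, since replicate 1 of noN at 20 min did not exceed both others by 1 in log2(CPM + 1). The N effect over 10 to 45 min was -3.34 (SE 0.44, edgeR adjusted p = 1.496e-08), and in N it fell by 3.93 (SE 1.19, edgeR adjusted p = 0.02962) from 10 to 45 min, a call lost without replicate 3 of N at 10 min (-2.58, edgeR adjusted p = 0.2989), without replicate 1, 2 or 3 of N at 45 min (edgeR adjusted p = 0.1291, 0.0532 and 0.09892) and in limma (adjusted p = 0.2043).

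Zm00001d014116 (chromosome 5, 33004668 to 33006371, plus strand, exons of 1675 bases) was higher in N at first and lower later. It stood at 15.6, 14 and 12.4 CPM at time 0 and at 31.4, 29.6 and 24.9 CPM in N at 5 min. At 30 min it stood at 42.7, 57.4 and 33.4 CPM in N and at 11.3, 8.24 and 13.4 CPM in noN. At 45 min the noN libraries were at 10.7, 13.2 and 14.2 CPM, and at 60 min at 62.1, 67.7 and 66.2 CPM, against 30.6, 36.1 and 24.9 CPM in N at 60 min. The media did not overlap at any of the 9 times, with N above at 5 to 45 min and below at 60 to 120 min. At 30 min N was higher by 2.00 (SE 0.31, adjusted p = 3.615e-06, edgeR). Over 10 to 45 min it was higher by 1.38 (SE 0.13, adjusted p = 5.801e-12, edgeR). Its N level at 5 min, with which the rule compared the late times, was already above all libraries of time 0, and between them it was not level, with group means of 55.04 CPM (SD 36.69, n = 3) at 15 min and 30.52 CPM (SD 5.63, n = 3) at 60 min.

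Zm00001d001276 (chromosome 7, 170932849 to 170933167, minus strand, exons of 319 bases) was highest in N at 20 to 45 min and in noN from 60 min on. It stood at 84.5, 70.7 and 38.1 CPM at time 0. In N it stood at 91.8, 75 and 96.2 CPM at 5 min, at 175, 210 and 247 CPM at 30 min and at 94.8, 94.3 and 88 CPM at 90 min. In noN it stood at 87.5, 137 and 99.9 CPM at 30 min, at 63.9, 113 and 107 CPM at 45 min and at 226, 201 and 264 CPM at 60 min. Here too N was above noN in every library at 5 to 45 min and below at 60 to 120 min. The N effect over 10 to 45 min was 0.98 (SE 0.09, edgeR adjusted p = 6.282e-12). It was 0.60 (edgeR adjusted p = 2.652e-06) once the trend with gene length was taken out of every library, a fall of over 1.5 times.

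**Figure D5:**
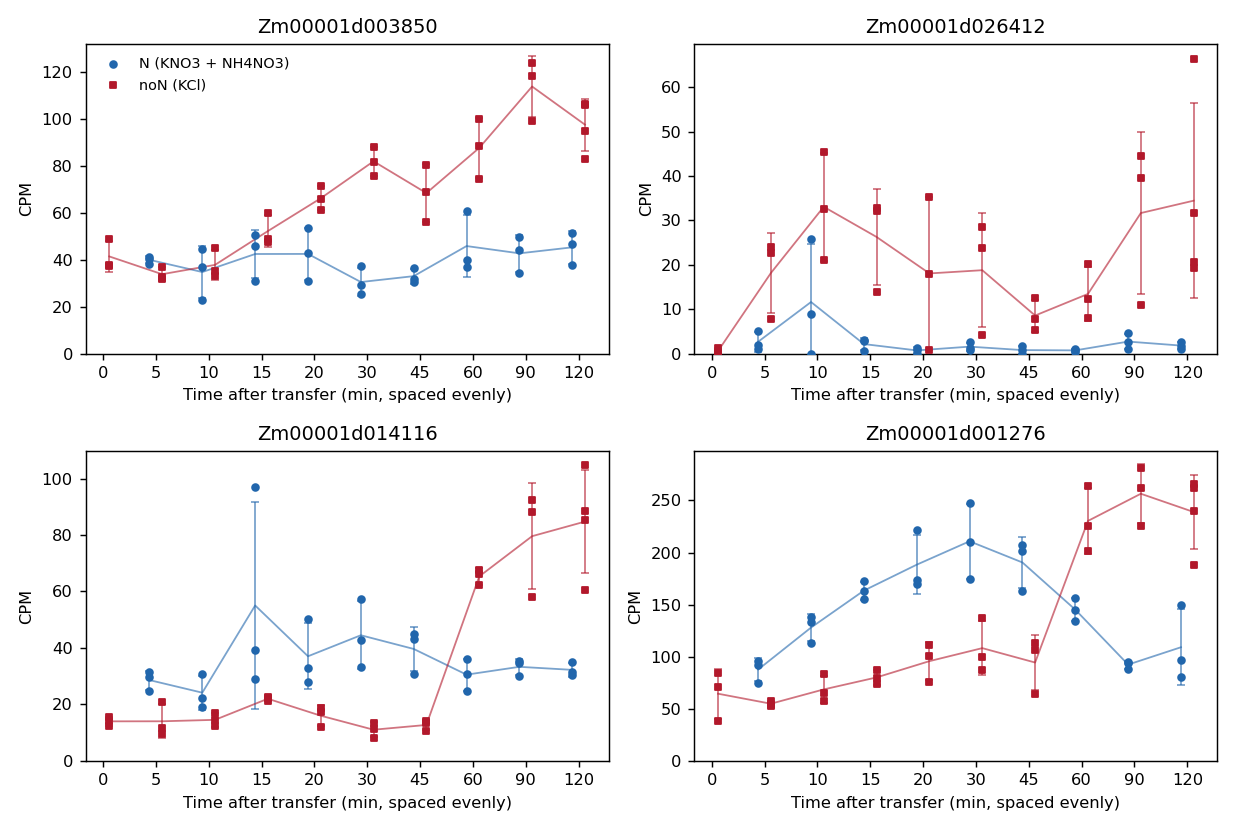
CPM of the 4 named genes in every library against time after transfer in minutes, in N (circles) and noN (squares), with lines through group means and bars of 1 SD (n = 3, and 4 in noN at 120 min). Upper panels, the genes lower in N early on; lower panels, the genes above noN in every N library at 5 to 45 min and below at 60 to 120 min. For Zm00001d001276 noN goes from 63.9 to 113 CPM at 45 min to 201 to 264 CPM at 60 min.

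The members were spread over the genome. They lay on all 10 chromosomes and on 2 unplaced contigs, with 28 on chromosome 2 (16.6%, against 11.4% of all genes at a level of 3), 25 on chromosome 1 and 22 on chromosome 3. Only 4 pairs had at most 4 genes between them. The closest pair, on chromosome 7, lies on opposite strands with 188 bases between, from 5386556 to 5387686 on the minus strand and from 5387875 to 5388613 on the plus strand. Both are variable members. In noN at 20 min the minus strand gene stood at 23.3, 4.48 and 3.68 CPM and the plus strand gene at 174, 21.6 and 13.5 CPM, so the same library was high for both. In N at 20 min they stood at 5.69, 2.25 and 3.29 CPM and at 48.1, 35.1 and 37.8 CPM. Single N libraries were high for both as well, with 18.3 and 165 CPM in replicate 1 of 45 min, 16.2 and 121 CPM in replicate 3 of 30 min and 21.2 and 114 CPM in replicate 3 of 60 min. Counting used the sense strand, so each gene has reads of its own strand, and no genome was used here to look for near-identical copies of any member.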

How the data were processed

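Members and gene groups were chosen with earlier results of these data known. The authors' deposited count table holds whole-number counts of reads per gene, made with featureCounts 2.0.1 on the sense strand of files deduplicated by molecular identifier, against release 37 of the AGPv4 annotation, per the file headers; UMI-tools 1.1.1, fastp 0.21.0 and STAR 2.7.6a are named in the submitters' processing notes. The authors' deposited quantile normalized expression is a whole-number score. It covers 18616 genes and 57 libraries and lacks replicate 4 of noN at 120 min. The deposited network weight is a score; the sources used here do not give how it was made.

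The rule used counts over column totals. Genes were kept by filterByExpr (minimum count 10, minimum total 15), leaving 18872 with 99.66% of counts, and were tested in edgeR 4.0.16 (R 4.3.3), TMM scaling, 1 mean per group, 39 residual degrees of freedom, trended dispersion, Benjamini-Hochberg adjustment over all genes tested. Values per library are CPM with TMM scaling. Alternatives were DESeq2 1.42.0, its size factors in edgeR, limma 3.58.1 on log2(score + 1), no filter, a gene length offset, fits of single contrasts, a replicate block and leaving out libraries. The 33 fits that leave out a library cover the groups of the contrasts. Counts of members raised in a library used a difference of 1. Named genes were, as fixed for tables without names, 2 called lower and 2 called higher with the smallest p of the mean N effect at 10 to 45 min. Replicates are separate pools of seedlings per the labels; 0 pairs of libraries shared over 90% of their values. Replicate numbers do not pair the samples. Promoter and protein sequences are not reported here.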

Additional observations from a re-analysis of the deposited data

Results flagged for a closer look

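For 3 of the 4 named genes every N library lay above every noN library at some times and below at others, and this difference between times was not tested. Zm00001d014116 had a mean N effect of 1.38 at 10 to 45 min and of -1.25 at 60 to 120 min. Zm00001d001276 had 0.98 and -1.09. Zm00001d003850 was above noN in all N libraries at 5 min, with a mean of -0.71 at 10 to 45 min and of -1.15 at 60 to 120 min. The later values belong to the rule that chose the genes. No sample stood apart in the 5 sets of 4 values of noN at 120 min that were examined; chance would flag about 1 such set in 20.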

How the results depend on the processing

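Of 164 counts under the alternatives that do not leave out a single library, 136 were within 1.5 times the reported count and 28 were not. Fits of the contrast's own groups gave 5 higher and 4 lower members at 10 min, 5 higher at 15 min, 5 lower at 20 min, 6 lower at 30 min, 1 lower in noN from 5 to 45 min, 13 higher in noN at 15 min, and 1 higher and 1 lower in the difference between media from 10 to 45 min. Limma on the quantile normalized values gave 14 lower at 20 min, 8 at 30 min and 9 at 45 min, 0 lower in noN from 5 to 45 min and 1 lower in the difference between media. DESeq2 gave 2 lower at 10 min and 1 higher and 1 lower in the difference between media, and no filter gave 2 lower at 10 min. Without the 4 raised noN libraries, chosen after seeing the data, there were 12 lower at 10 min, 5 at 20 min, 2 at 30 min, 5 higher and 7 lower at 45 min, 27 lower in the mean of 10 to 45 min, 2 lower in noN from 5 to 45 min, 80 higher in noN at 15 min and 1 lower in the difference between media. The cause of these changes was not tested. The shares of all genes called in the same fits follow, in the order of these counts. Fits of the contrast's own groups called 3.88%, 1.3%, 11.1%, 11.1%, 4.7%, 3.19%, 1.49%, 0.458% and 0.0343%. Limma called 14.3%, 9.54%, 12.3%, 3.75% and 0.306%. DESeq2 called 4.64%, 1.4% and 0.514%, and no filter 1.72%. Without the 4 raised libraries it was 4.17%, 9.67%, 4.57%, 8.55%, 5.82%, 26.1%, 1.05%, 6.03% and 0.0996%.

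With a replicate block 2 members were lower at 10 min and it changed no other count by over 1.5 times; deviations of libraries with the same number had median correlations of 0.00, 0.01 and 0.01, so the numbers do not pair the samples. Leaving out single libraries gave, for members higher and lower in turn, 5 to 11 and 0 to 3 at 10 min, 1 to 14 and 40 to 52 at 15 min, 10 to 17 and 5 to 49 at 20 min, 12 to 17 and 2 to 23 at 30 min, 4 to 10 and 3 to 16 at 45 min, and 31 to 36 and 38 to 69 in the mean. The ranges were 6 to 14 and 0 to 5 in noN from 5 to 45 min, 11 to 73 and 0 to 0 in noN at 15 min, 4 to 5 and 0 to 6 in N from 10 to 45 min, and 0 to 0 and 0 to 2 in the difference between media. The number of members was 150 to 193 without single libraries, 180 with TMM scaling, 172 and 126 with pseudocounts of 0.5 and 3 (151 and 103 of them shared) and 191 with group medians.

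Of 232 values of the 4 named genes 226 held their side of the threshold and their sign. The difference between media from 10 to 45 min passed the threshold for Zm00001d003850 without replicate 1 of N at 10 min (-1.17, adjusted p = 0.02641, edgeR). It changed sign for Zm00001d026412 in limma (0.033), and for Zm00001d001276 with the length trend removed (-0.14), without the 4 raised libraries (-0.12) and without single libraries of noN at 10 or 45 min (-0.06 and -0.10, in a range of -0.10 to 0.25 without single libraries). At 1978039 to 3790442 counts a library, low members stand on few molecules.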
